A study of Mus musculus with 9 samples.

Results

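The mouse small proline-rich (*Sprr*), *S100a* and late cornified envelope (*Lce*) genes were taken from the count table by their symbols, with pseudogene symbols ending in -ps left out. They numbered 50 of the 55228 genes listed, as 15 *Sprr*, 14 *S100a* and 21 *Lce* genes. The group was chosen by the count of *Sprr2g*, which stood far higher in *KD1* than elsewhere, and then by symbols alone, so the level of *Sprr2g* is described here without a test and is left out of every count of changed genes. Of the 50 genes, 22 passed the filter on low counts, as 10 *Sprr* and 12 *S100a* genes but 0 *Lce* genes, which leaves 21 tested genes beside *Sprr2g*. Another 20 were counted in at least 1 culture without passing the filter, and 8 had no count in any culture.

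The study targeted *Vangl2*, a planar cell polarity gene, in HC11 cells, a heterogeneous mouse mammary epithelial line, by CRISPR/Cas9 with a repair template carrying stop codons. RNA was sequenced from 3 cultures each of the parental *WT* cells and of the edited lines *KD1* and *KD2*. Each edited line was grown from single colonies after targeting, so each stands for 1 cloned line, and no line cloned without editing was analysed here. The labels name both lines *Vangl2* knockouts where the methods name them *KD*, and no treatment was given. All cultures shared RPMI-1640 medium with 10% FBS, 5 µg/mL insulin, 10 ng/mL EGF and AntiAnti, the medium of undifferentiated cells. The study speaks of biological replicates without describing whether the 3 samples of a line were grown separately, so p-values measure the spread between these samples, which may be technical.

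Depth ranged from 19231428 to 28360592 counts per library, at which 3 counts in a library correspond to 0.0997 to 0.154 CPM (counts scaled to library size with TMM factors). The reads carried no molecular identifiers, so floors and intervals cover counting error only. *WT* replicate 1 and *KD2* replicate 3 stood apart from the other libraries of their lines, with a chi-square per degree of freedom of 10.7 to 22.1 against them, where all other pairs gave 1.37 to 3.38. *Vangl2* itself had 66, 99 and 86 counts in *WT*, 75, 48 and 69 in *KD1*, and 90, 118 and 90 in *KD2*. Its log2FC (log2 fold change) was -0.63 in *KD1* (adjusted p = 0.00581) and 0.05 in *KD2* (adjusted p = 0.810). By immunoblot, the study reported that VANGL2 protein was nearly or fully absent from *KD1* and strongly reduced, but not absent, in *KD2*. The repair template was designed with stop codons, and their insertion was not examined here. A transcript level near *WT* therefore does not settle the protein level of the second line. Of 8 mammary epithelial markers 7 passed the filter on low counts, and *Krt19* had no count in any library.

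The 3 families belong to the epidermal differentiation complex, a gene cluster named for its role in the outer layers of skin. SPRR and LCE proteins are small, cross-linked building blocks of the cornified envelope, the protein shell that replaces the membrane of a dying keratinocyte, and SPRR genes are also induced in stressed or injured simple epithelia. S100A proteins are calcium sensors that bind and regulate other proteins, among them annexins and myosin, and some are secreted in inflammation.

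All 50 genes lie on chromosome 3 of GRCm38 between 90511034 and 93564643, a span of 3.05 Mb. A block of 12 *S100a* genes (90511034 to 90695721) is followed by the 15 *Sprr* genes (92215799 to 92500493), the 21 *Lce* genes (92620081 to 93019060) and a last pair, *S100a11* and *S100a10* (93520488 to 93564643). Among the *Sprr* genes, 11 are *Sprr2* copies in a row, *Sprr1b*, *Sprr3*, *Sprr1a* and *Sprr4* follow them, and *Sprr2g* is annotated as a polymorphic pseudogene. Some copies are close enough for reads to be counted on the wrong gene. Of all 50-base windows in the exons of *Sprr2a1*, *Sprr2a2* and *Sprr2a3*, 96.3%, 96.5% and 61.1% also occur in another gene, and the exons of *Sprr2a1* and *Sprr2a2* overlap on the same strand. The share was 14.1% for *Sprr2b*, 12.5% for *Sprr2i*, 10.2% for *Sprr2e*, 4.27% for *Sprr2d*, 0.714% for *Sprr2f*, and 0 for *Sprr2g*, *Sprr2h*, *Sprr2k*, *Sprr1a* and *Sprr1b*.

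The bases before the start of transcription are shown for 5 *Sprr* genes that were higher in *KD1*, because *Sprr2* copies share a layout there that the *Sprr1* pair holds in part. Each line gives 250 bases of GRCm38.p6 from RefSeq, 5′ to 3′ on the strand of the gene, ending at the base before the start. The positions are chr3:92351893-92352142, chr3:92364937-92365186 and chr3:92385435-92385684 on the plus strand, and chr3:92438780-92439029 and chr3:92485882-92486131 on the minus strand. Capitals mark TGANTCA, the letters of the AP-1 motif, the run ATTTGCATTT and the TATA letters TATAAA.
Sprr2e: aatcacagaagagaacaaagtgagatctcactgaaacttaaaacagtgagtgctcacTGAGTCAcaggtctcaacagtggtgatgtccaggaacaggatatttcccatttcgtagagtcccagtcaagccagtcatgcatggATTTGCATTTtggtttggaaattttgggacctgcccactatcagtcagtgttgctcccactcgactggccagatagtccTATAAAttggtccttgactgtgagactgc
Sprr2f: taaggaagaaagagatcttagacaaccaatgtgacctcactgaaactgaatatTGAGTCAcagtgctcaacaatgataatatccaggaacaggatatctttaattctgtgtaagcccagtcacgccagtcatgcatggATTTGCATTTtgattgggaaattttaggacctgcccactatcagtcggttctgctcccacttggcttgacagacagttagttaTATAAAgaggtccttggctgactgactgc
Sprr2h: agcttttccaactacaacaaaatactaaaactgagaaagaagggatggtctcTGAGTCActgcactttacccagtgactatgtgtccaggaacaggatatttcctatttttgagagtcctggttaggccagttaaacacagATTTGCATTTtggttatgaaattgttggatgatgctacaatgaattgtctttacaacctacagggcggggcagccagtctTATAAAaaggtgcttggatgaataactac
Sprr1b: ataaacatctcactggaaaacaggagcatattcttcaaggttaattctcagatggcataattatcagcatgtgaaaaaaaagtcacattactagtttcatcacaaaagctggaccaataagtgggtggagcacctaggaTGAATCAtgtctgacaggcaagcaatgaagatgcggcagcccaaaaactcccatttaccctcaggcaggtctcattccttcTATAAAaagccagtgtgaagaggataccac
Sprr1a: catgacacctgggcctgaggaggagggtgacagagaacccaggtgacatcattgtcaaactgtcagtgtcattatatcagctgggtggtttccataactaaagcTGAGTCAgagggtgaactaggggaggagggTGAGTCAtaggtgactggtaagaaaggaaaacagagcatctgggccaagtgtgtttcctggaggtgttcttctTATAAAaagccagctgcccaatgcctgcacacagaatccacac

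A RefSeq window of 250 bases before to 50 bases after the start was held for 14 of the 15 *Sprr* genes (all but *Sprr2g*), 11 *S100a* genes in 15 windows and 20 *Lce* genes. TGANTCA, which reads as the same motif on both strands, occurred in the windows of 9 of the 14 *Sprr* genes, against 7.81% of all 32851 windows. Among them were *Sprr1a*, *Sprr1b* and 7 *Sprr2* genes, in which TGAGTCAC started at positions -198 to -193 from the start. TATAAA occurred on either strand in 10 of the 14, against 13.6% of all windows, and lay at position -29 in each of the same 7 *Sprr2* genes. These 7, *Sprr2b*, *Sprr2d*, *Sprr2e*, *Sprr2f*, *Sprr2h*, *Sprr2i* and *Sprr2k*, also shared ATTTGCATTT at positions -112 to -108, a run held by 0.225% of all windows on either strand. The windows of *Sprr2a1*, *Sprr2a2* and *Sprr2a3* held none of the 3 matches, and the RefSeq start of *Sprr2a3* lies upstream of the start in the GENCODE annotation. GGGTGTG or GGGCGTG, Krüppel-like factor motifs, and the interferon response motif, searched on both strands, were in none of the 14 *Sprr* windows, against 15.5% and 3.44% of all windows. In *S100a* genes the AP-1 letters were in the windows of *S100a11* and *S100a16*, and in *Lce* genes in none. The copies have similar windows, with 89.7% identity between *Sprr2d* and *Sprr2e*, 82.3% between *Sprr2h* and *Sprr2k* and 100% between *Sprr2a1* and *Sprr2a2*, so matches in them are not independent.

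Relative to *WT*, the *Sprr* genes stood higher in the first edited line and lower in the second. *Sprr2a3*, *Sprr2h*, *Sprr1b* and *Sprr1a*, the 4 tested *Sprr* genes that pass the low-count filter without the *KD1* libraries, were each called higher in *KD1* and also lower in *KD2*. A call means a log2FC beyond 1 in size with a Benjamini-Hochberg adjusted p under 0.05. Another 5, *Sprr2a1*, *Sprr2a2*, *Sprr2d*, *Sprr2e* and *Sprr2f*, and *S100a9*, passed the filter only through their counts in *KD1*, so that a higher value there was fixed by the filter, and their difference from *KD1* is given without a p. Over the 15 members that pass without *KD1*, 5 were called higher and 2 lower in *KD1*, against 7.44% and 7.63% of the 14489 genes that do so, with a median log2FC of 0.40 against -0.05. In *KD2*, 0 of the 15 were called higher and 6 lower, against 14.2% and 6.35%, with a median of -0.45 against 0.00. Set against *KD1* directly, *KD2* had 1 of the 15 called higher and 7 lower, against 15% and 6.83%. These shares include genes that pass only through *KD2*, where a higher value was fixed by the filter. All 21 members pass without *KD2*. Of the 14344 genes that do so, 10.9% were called higher and 7.13% lower in *KD2*. In *KD2* against *KD1* the shares of these genes were 11.1% and 9.12%. With the 6 other genes included, the counts over 21 were 11 higher and 2 lower in *KD1* (9.34% and 7.49% of all 15253 genes tested), 0 and 8 in *KD2* (14.5% and 6.71%), and 1 and 13 in *KD2* against *KD1* (14.7% and 8.58%). A filter of at least 10 counts in every library left 3 members called higher in *KD1*. The count of 0 in *KD2* is from edgeR, 2 of the 21 members were higher at an unadjusted p under 0.05, and DESeq2 also called 0. Without *WT* replicate 1, *KD1* had 12 members called higher and 2 lower and *KD2* 0 higher and 9 lower, and without *KD2* replicate 3 the counts were 12 and 1, and 0 and 9, where the added gene was *Sprr2i*, which then passed the filter. By the adjusted p alone 9 of the 15 members were higher and 4 lower in *KD1* (26.9% and 30% of all genes tested). The counts were 2 and 10 in *KD2* (34% and 33.3%), and 3 and 9 in *KD2* against *KD1* (34.8% and 33%). With the 6 other genes, whose higher value in *KD1* was fixed by the filter, they were 15 and 4, 2 and 12, and 3 and 15 of 21. Over the 21, with those 6 included, all libraries of *KD1* stood above those of *WT* for 16 members and below for 4 (32.4% and 36.4% of all genes). Those of *KD2* did so for 2 and 10 (34.5% and 33.4%), and *KD2* against *KD1* for 3 and 15 (36.7% and 35%). For those 6 a higher value in *KD1* was fixed by the filter, and overlap was not counted over the 15 alone. The shares by the adjusted p alone and by overlap are of all genes tested, and were not taken over the genes that pass without *KD1*. Both edited lines were compared with the same *WT* libraries. In bulk RNA, fewer cells that express a gene and less RNA per cell cannot be told apart.

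Summed over the 15 *Sprr* genes, expression was 43.0 to 55.0 CPM in the *WT* libraries, 361 to 369 CPM in *KD1* and 3.79 to 5.40 CPM in *KD2*. Without *Sprr2g* the sums were 42.4 to 54.6, 284 to 294 and 3.63 to 5.21 CPM. The 3 ranges do not overlap, with *KD1* above and *KD2* below *WT*.

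*Sprr2g*, whose level defined the group, had 11, 9 and 9 counts in *WT*, 2008, 1968 and 1869 in *KD1*, and 4, 2 and 4 in *KD2*. These are 0.454 ± 0.102 CPM (SD, n = 3), 75.6 ± 1.64 CPM and 0.142 ± 0.0673 CPM. The *KD1* libraries thus stood far above all others, and those of *KD2* were lowest.

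*Sprr2h*, the next *Sprr2* copy along the chromosome and without shared sequence windows, had 43, 51 and 48 counts in *WT*, 2242, 2024 and 1920 in *KD1*, and 2, 6 and 3 in *KD2*. The lines did not overlap, and *Sprr2h* in *KD1* reached the level of *Sprr2g*. Against *WT*, the log2FC reached 5.19 in *KD1* (SE 0.0934, adjusted p = 3.12e-14) and fell to -3.85 in *KD2* (SE 0.247, adjusted p = 1.11e-08).

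*Sprr2a3*, the most counted *Sprr* gene of *WT*, had 394, 626 and 529 counts there, 3130, 2946 and 3067 in *KD1*, and 11, 22 and 16 in *KD2*. Here too no library of *KD1* or *KD2* overlapped *WT*. *KD1* gave a log2FC of 2.32 (SE 0.0895, adjusted p = 4.26e-11) and *KD2* one of -5.17 (SE 0.160, adjusted p = 1.17e-11). Its near-identical copies *Sprr2a1* and *Sprr2a2*, which can exchange reads with it, moved the same way from a lower level. *Sprr2a1* had 6, 6 and 3 counts in *WT*, 102, 82 and 54 in *KD1* and none in *KD2*, and *Sprr2a2* had 5, 8 and 8, then 138, 152 and 99, then none. In *KD1* their log2FC values were 3.70 and 3.94. In *KD2* they were at least 1.88-fold and 2.62-fold lower than in *WT*, counted against a floor of 3 counts per library (adjusted p = 0.00169 and 2.38e-04).

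*Sprr2d*, *Sprr2e* and *Sprr2f*, which lie next to *Sprr2g*, were counted almost only in *KD1*. *Sprr2d* had 0, 1 and 0 counts in *WT*, 133, 144 and 163 in *KD1* and none in *KD2*. *Sprr2e* had 0, 1 and 0, then 241, 170 and 212, then 1, 0 and 1. *Sprr2f* had none in *WT*, 29, 26 and 40 in *KD1*, and none in *KD2*. No *KD1* library overlapped any other. The ratio of *KD1* to *WT* was 370 for *Sprr2d* (95% exact counting interval 66.0 to 14644) and 524 for *Sprr2e* (93.7 to 20721), each resting on 1 *WT* count. *Sprr2f* was at least 8.82-fold higher. *WT* and *KD2* were both at the floor for these 3 genes, so no fold is given between them.

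*Sprr1b* and *Sprr1a*, precursors of the cornified envelope that share no sequence windows with other genes, changed least in *KD1*. *Sprr1b* had 231, 361 and 268 counts in *WT*, 784, 702 and 753 in *KD1*, and 15, 26 and 20 in *KD2*. The rise in *KD1* had a log2FC of 1.14 (SE 0.0932, adjusted p = 1.49e-07) and the fall in *KD2* one of -4.01 (SE 0.150, adjusted p = 6.90e-11). *Sprr1a* had 142, 300 and 258 counts in *WT*, 1120, 947 and 968 in *KD1*, and 60, 78 and 66 in *KD2*, and *WT* replicate 1 was its lowest *WT* library at 7.27 CPM, where the mean of 3 was 10.6 CPM. The lines again did not overlap for either gene. For *Sprr1a* these were 1.87 (SE 0.144, adjusted p = 7.29e-08) and -1.97 (SE 0.189, adjusted p = 6.22e-07), a smaller fall than those of *Sprr2a3*, *Sprr2h* and *Sprr1b*.

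**Figure D1:**
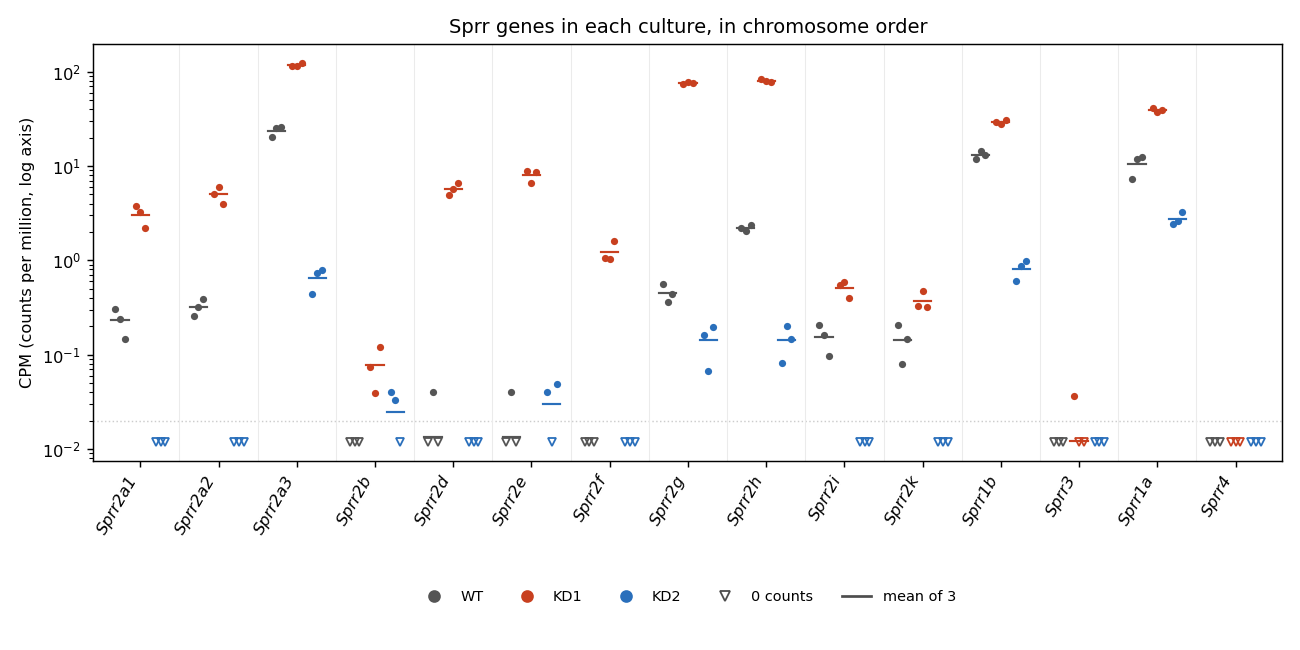
CPM on a log axis for the 15 *Sprr* genes in chromosome order, with 1 point per library of *WT*, *KD1* and *KD2*, open triangles for libraries with 0 counts and lines for the mean of 3. *KD1* lies above *WT* and *KD2* below it in *Sprr2a3*, *Sprr2h*, *Sprr1b* and *Sprr1a*.

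The untested *Sprr* genes were counted rarely. *Sprr2i* had 4, 4 and 2 counts in *WT*, 15, 15 and 10 in *KD1* and none in *KD2*, and *Sprr2k* had 4, 2 and 3, then 9, 12 and 8, then none. Both had their highest values in *KD1*, and both were at least 4.20-fold and 3.06-fold lower in *KD2* than in *KD1* against the floor. *Sprr2b* had at most 3 counts in a library, *Sprr3*, expressed in internal squamous epithelia, had 1 count in all, and *Sprr4* had none.

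In the direct comparison of the edited lines, every *KD2* library lay below every *KD1* library for each of the 4 *Sprr* genes that pass the filter without *KD1*. The log2 difference of *KD2* from *KD1* was -9.04 for *Sprr2h* (SE 0.137, adjusted p = 8.58e-15) and -7.49 for *Sprr2a3* (SE 0.143, adjusted p = 2.76e-14). For *Sprr1b* it was -5.15 and for *Sprr1a* -3.84 (adjusted p = 6.44e-13 and 1.42e-10). *Sprr2a1*, *Sprr2a2*, *Sprr2d* and *Sprr2f*, without a count in *KD2*, were at least 24.9-fold, 40.9-fold, 46.5-fold and 10.1-fold lower there. The ratio for *Sprr2e*, which had 2 counts in *KD2*, was 303 (95% exact counting interval 83.4 to 2505).

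The lines also differed in which *Sprr* genes made up the total. In *WT*, *Sprr2a3* gave 46.4% of 3337 *Sprr* counts, *Sprr1b* 25.8% and *Sprr1a* 21.0%, and *Sprr2h* gave 4.26% and *Sprr2g* 0.869%. In *KD1*, *Sprr2a3* gave 32.3% of 28309 counts, *Sprr2h* 21.9% and *Sprr2g* 20.6%, while *Sprr1a* gave 10.7% and *Sprr1b* 7.91%. *Sprr1a* took the largest share in *KD2*, with 60.2% of 339 counts (95% exact binomial interval 54.7 to 65.4%), before *Sprr1b* with 18.0% and *Sprr2a3* with 14.5%. These shares are of counts, which also scale with transcript length, and a share of a sum rises when the others fall.

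**Figure D2:**
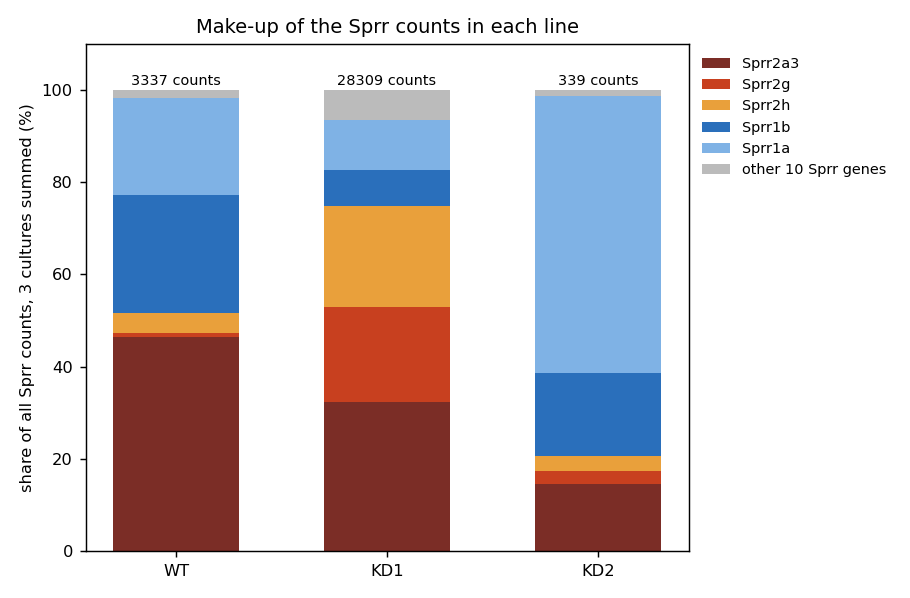
Share in percent of each named gene in all *Sprr* counts of a line, with the 3 libraries of a line summed and the total printed above each bar. *Sprr2h* and *Sprr2g* together take much of the *KD1* bar (21.9% and 20.6%) and little of the *WT* bar (4.26% and 0.869%), and *Sprr1a* takes 60.2% of the *KD2* bar.

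The late cornified envelope genes, whose products are laid down last in the envelope of skin, were close to absent from the data. The 21 genes drew 79 counts in all 9 libraries together, and 7 of them drew none. *Lce1g* had 1, 1 and 1 counts in *WT*, 13, 10 and 5 in *KD1*, and 4, 2 and 0 in *KD2*, and its ratio of *KD1* to *WT* was 7.85 (95% exact counting interval 2.42 to 40.3). *Lce3c* had 0, 1 and 1, then 4, 4 and 3, then none, with a ratio of 4.62 (1.01 to 42.9). In both genes the *KD1* libraries were above the *WT* libraries. These are readings near the floor of 3 counts, *Lce* copies share 0 to 49.3% of their sequence windows with other genes, and none passed the filter of the test used here. Without that filter, edgeR over every gene with a count and DESeq2 both called *Lce1g* higher in *KD1*. *Lce1h*, chosen after its values were seen, had 0 counts in *WT*, 0, 2 and 0 in *KD1* and 2, 2 and 4 in *KD2*.

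The *S100a* genes were far more abundant than the *Sprr* genes in *WT*, and their log2FC values were smaller in the median. Their sum was 747 to 835 CPM in *WT*, 792 to 823 in *KD1* and 574 to 728 CPM in *KD2*, so that *KD1* lay inside the *WT* range and *KD2* below it. Of the 12 tested, 2 were called higher and 2 lower for *KD1* (9.34% and 7.49% of all genes), while for *KD2* the calls were 0 higher and 2 lower (14.5% and 6.71%), and in numbers this small they lie close to those shares. On the adjusted p alone, 6 were higher and 4 lower for *KD1*, where 26.9% and 30% of all genes passed in those directions, and 2 were higher and 6 lower in *KD2*, where 34% and 33.3% did. *S100a9* is among the 12 and passed the filter only through *KD1*. Of the 11 others, 1 was called higher and 2 lower for *KD1*, against 7.44% and 7.63% of such genes, and 0 and 2 for *KD2*, against 14.2% and 6.35%. All 12 pass without *KD2*, and of the genes that do so 10.9% were called higher and 7.13% lower for *KD2*. By the adjusted p alone 5 of the 11 were higher and 4 lower in *KD1*, and 2 and 6 in *KD2*. Their median log2FC was 0.25 in *KD1* and -0.29 in *KD2*. The count of 0 is from edgeR, 2 genes were higher in *KD2* at an unadjusted p under 0.05, and DESeq2 called 0.

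*S100a11*, *S100a10* and *S100a6* led all members per length of exon, in that order, in every line. In *WT* they stood at 352 ± 34.0, 177 ± 8.29 and 169 ± 7.16 CPM per kb (SD, n = 3), and the last pair lay within their spread of each other. *S100a16*, *S100a14* and *S100a1* followed at 37.8 ± 3.61, 35.6 ± 1.04 and 35.2 ± 3.32 CPM per kb, without a difference beyond their spread. In *KD1*, *Sprr2g* at 116 and *Sprr2h* at 106 CPM per kb ranked directly after the leading *S100a* genes, where the most abundant *Sprr* gene of *WT*, *Sprr1b*, stood at 15.8 CPM per kb.

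*S100a10* encodes the light chain of the annexin A2 complex, *S100a11* an annexin A1 partner, and *S100a6* calcyclin. *S100a10* was at 211, 208 and 227 CPM in *WT*, 223, 233 and 221 in *KD1*, and 175, 170 and 196 in *KD2*. Only *KD2* stood apart from *WT*, with a log2FC of -0.26 (SE 0.0643, adjusted p = 0.00299, or 0.0574 with library size alone) against 0.07 in *KD1* (adjusted p = 0.375). *S100a11*, which shares 41.1% of its windows with other genes, was at 162, 181 and 197 CPM in *WT*, 218, 215 and 210 in *KD1*, and 172, 171 and 216 in *KD2*. Its log2FC was 0.25 in *KD1* (adjusted p = 0.0271), which missed the threshold without *WT* replicate 1 (0.18, adjusted p = 0.121), and without *KD1* replicate 1 or 2 (adjusted p = 0.0751 and 0.0618). *S100a6* was at 221, 233 and 240 CPM in *WT*, 195, 192 and 176 in *KD1*, and 169, 165 and 235 in *KD2*, where *KD2* replicate 3 reached into the *WT* range. Its log2FC values of -0.30 and -0.29 (adjusted p = 0.0289 and 0.0312) missed the threshold when *WT* replicate 2 was left out (adjusted p = 0.0930 and 0.0963), as with other libraries. Between the edited lines *S100a6* was 0.01 higher in *KD2* on the log2 scale (adjusted p = 0.913), and 0.16 lower without *KD2* replicate 3 (log2 difference -0.16, adjusted p = 0.00885).

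*S100a14* and *S100a16*, neighbours expressed in epithelia, fell in *KD2*. *S100a14* was at 59.7, 63.3 and 61.6 CPM in *WT*, 75.4, 77.5 and 76.2 in *KD1*, and 7.63, 7.58 and 9.04 in *KD2*. *S100a16* was at 54.6, 65.8 and 63.0 CPM in *WT*, 80.7, 79.9 and 81.3 in *KD1*, and 25.0, 24.7 and 29.6 in *KD2*. In both genes the 3 lines did not overlap, with *KD1* highest and *KD2* lowest. For *S100a14* the log2FC was -2.94 in *KD2* (SE 0.0751, adjusted p = 1.83e-12) and 0.31 in *KD1* (SE 0.0625, adjusted p = 7.11e-04), and for *S100a16* it was -1.22 and 0.40 (adjusted p = 2.30e-08 and 6.89e-04).

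*S100a1*, the main S100 protein of heart muscle, and *S100a4*, which binds non-muscle myosin, fell in *KD1*. *S100a1* was at 21.8, 25.9 and 25.6 CPM in *WT*, 11.9, 12.2 and 12.5 in *KD1*, and 20.1, 18.1 and 22.1 in *KD2*. Its log2FC in *KD1* was -1.01 (SE 0.0933, adjusted p = 5.31e-07), at the edge of the limit of a log2 change of 1. The call was lost without *WT* replicate 2 or 3, *KD1* replicate 1 or *KD2* replicate 3, and with DESeq2, and over the alternatives the value ranged from -1.08 to -0.94 with the adjusted p always under the threshold. *S100a4* had 143, 224 and 203 counts in *WT*, 46, 52 and 48 in *KD1*, and 118, 145 and 128 in *KD2*, with log2FC values of -2.21 (SE 0.164, adjusted p = 5.16e-08) and -0.73 (adjusted p = 4.48e-04). No *KD1* library overlapped another line in either gene. Of the windows of *S100a4*, 47.4% also occur in *Gm42674*, which overlaps it on the same strand.

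*S100a13*, which takes part in the release of signal peptide-less growth factors, was at 7.32, 7.15 and 9.07 CPM in *WT*, 5.94, 5.11 and 6.29 in *KD1*, and 9.37, 9.91 and 10.7 in *KD2*. It moved in opposite directions, with log2FC values of -0.44 in *KD1* (adjusted p = 0.00768) and 0.35 in *KD2* (adjusted p = 0.0180). The first missed the threshold without *WT* replicate 3 (adjusted p = 0.0665), and the second without *WT* replicate 1 or 2 (adjusted p = 0.0553 and 0.0680). *S100a3*, known from the hair cuticle and overlapped by *Gm42674* and *Gm23464*, had 38, 49 and 34 counts in *WT*, 83, 83 and 86 in *KD1*, and 22, 43 and 37 in *KD2*. Its log2FC was 0.81 in *KD1* (adjusted p = 0.00324) and -0.45 in *KD2* (adjusted p = 0.0975), which passed the threshold without *KD2* replicate 3 (-0.63, adjusted p = 0.0213).

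The *S100a* genes best known from inflamed skin and white blood cells, *S100a7a* of the psoriasin family and *S100a8* and *S100a9*, the subunits of calprotectin, were rare. *S100a9* had 0, 1 and 1 counts in *WT*, 37, 21 and 21 in *KD1*, and none in *KD2*. *S100a8* had 11, 7 and 9, then 17, 22 and 17, then 7, 18 and 16. *S100a7a* had 10, 13 and 9, then 36, 39 and 38, then 25, 20 and 17. All 3 had their highest mean in *KD1*, though the *S100a8* values of *KD2* overlapped both other lines. The ratio of *KD1* to *WT* was 33.2 for *S100a9* (95% exact counting interval 8.89 to 279), and *KD2* was at least 8.24-fold below *KD1*. *S100a7a* rose in *KD1* with a log2FC of 1.56 (SE 0.241, adjusted p = 7.89e-05), and in *KD2* its value was 0.75 (adjusted p = 0.0243), which missed the threshold with DESeq2 (adjusted p = 0.122) and without *WT* replicate 3 or *KD2* replicate 1 (adjusted p = 0.0641 and 0.135). For *S100a8* the log2FC was 0.79 and 0.39 (adjusted p = 0.0846 and 0.398). *S100a2* and *S100a5* did not pass the filter, with 1, 1 and 1, then 7, 10 and 6, then 3, 1 and 1 counts for *S100a2* and at most 2 counts in a library for *S100a5*.

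Markers of white blood cells, a known source of *S100a8* and *S100a9*, were at or near 0. Of 10 myeloid markers, all were at or under the floor in *WT* and 9 in *KD1*, where *Csf1r* alone was above it, and their sum was 0.146 to 0.240 CPM in *WT*, 0.314 to 0.516 in *KD1* and 1.45 to 1.76 in *KD2*. *Ptprc*, the marker common to white blood cells, had at most 2 counts in a library, and *Csf3r* and *Adgre1* had none. *Lyz2* had 31, 41 and 27 counts in *KD2*, none in *KD1* and at most 1 in a *WT* library.

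**Figure D3:**
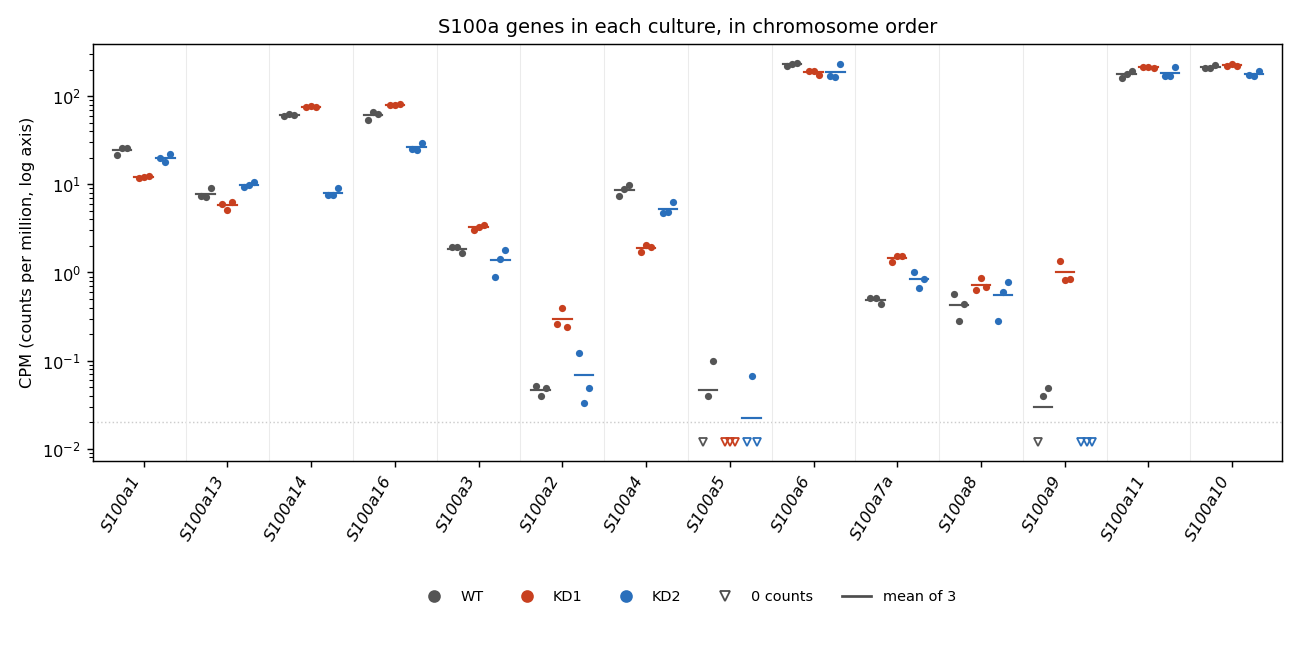
CPM on a log axis for the 14 *S100a* genes in chromosome order, with 1 point per library, open triangles for libraries with 0 counts and lines for the mean of 3. *S100a14* and *S100a16* are lowest in *KD2*, *S100a4* and *S100a1* are lowest in *KD1*, and *S100a9* is above the floor in *KD1* alone.

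The neighbours of the members on chromosome 3 were set beside them. Within 2 Mb of *Sprr2g*, 23 tested genes were no members, with pseudogenes among them, such as *Sprr2j-ps* inside the *Sprr2* row. Of the 23, 17 pass the filter without *KD1*. Of these 17, 4 were called higher and 2 lower for *KD1*, against 7.44% and 7.63% of all such genes, with a median log2FC of 0.14. For *KD2*, 4 of the same 17 were called higher and 3 lower, against 14.2% and 6.35%, with a median of -0.02. Of the 19 that pass without *KD2*, 2 were called higher and 6 lower for *KD2*, against 10.9% and 7.13%, with a median of -0.62. These 19 include genes that pass the filter only through *KD1*, *Prr9*, *Lelp1* and *Sprr2j-ps* among them, so the direction depends on the set taken. In the stretch before the *Sprr* block, the gene model *AC138676.1* had 44, 44 and 57 counts in *WT*, 312, 283 and 306 in *KD1*, and 1, 1 and 1 in *KD2*. *Gm35439*, between it and *Sprr2a1*, had 69, 83 and 63, then 413, 440 and 424, then 5, 4 and 0. Both rose in *KD1* and fell in *KD2*, with log2FC values of 2.38 and 2.32 in *KD1* (adjusted p = 6.15e-09 and 7.88e-09). In *KD2* the ratio for *AC138676.1* was 55.9-fold lower (95% exact counting interval 18.7 to 274), and the log2FC of *Gm35439* was -4.73 (adjusted p = 1.80e-08). Past the *S100a10* end, *Gm5541* and *Gm4778* had 39, 44 and 41 and 12, 12 and 11 counts in *KD2*, where *WT* had at most 1 count in a library. Neither passes the low-count filter without *KD2*, so that a higher value there was fixed by the filter.

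Of 16 other protein genes of the epidermal differentiation complex, 5 were tested, and *Prr9* and *Lelp1* among them passed the filter only through *KD1*. Of the other 3, 2 were called higher and 1 lower for *KD1*, against 7.44% and 7.63% of the genes that pass without *KD1*. For *KD2*, 1 was called higher and 1 lower, against 14.2% and 6.35%, or 10.9% and 7.13% of the genes that pass without *KD2*. These 3 genes are too few to set apart from those shares. *Ivl*, which encodes involucrin, a scaffold of the early envelope, had 11, 42 and 32 counts in *WT*, 639, 641 and 682 in *KD1*, and 1, 3 and 5 in *KD2*. Involucrin transcript rose in *KD1* by a log2FC of 4.28 (SE 0.209, adjusted p = 5.57e-10) and in *KD2* the value was -3.38 (SE 0.511, adjusted p = 4.84e-05), without overlap between lines. *Prr9* and *Lelp1*, proline-rich genes beside the *Sprr* block, had 45, 53 and 50 and 32, 37 and 30 counts in *KD1*, 2, 6 and 4 and 8, 4 and 7 in *WT*, and 1, 0 and 0 and 1, 1 and 0 in *KD2* (adjusted p = 0.00328 and 9.57e-04 for *KD2* against *WT*). The gene model *AC138676.1* spans *Prr9* and nearly all of *Lelp1* on the same strand, so reads may be shared between them. *Pglyrp3*, a peptidoglycan recognition gene, was higher in both edited lines, with log2FC values of 3.15 and 1.60 (adjusted p = 5.07e-12 and 1.24e-08). *Tchh*, trichohyalin of the hair follicle, was lower in *KD1*, with a log2FC of -2.56, and had a value of 0.32 in *KD2* (adjusted p = 4.76e-10 and 0.0107). *Lor*, which encodes loricrin, the main protein of the mature envelope, had 1, 1 and 1 counts in *WT*, 4, 4 and 4 in *KD1*, and 1, 1 and 1 in *KD2*.

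**Figure D4:**
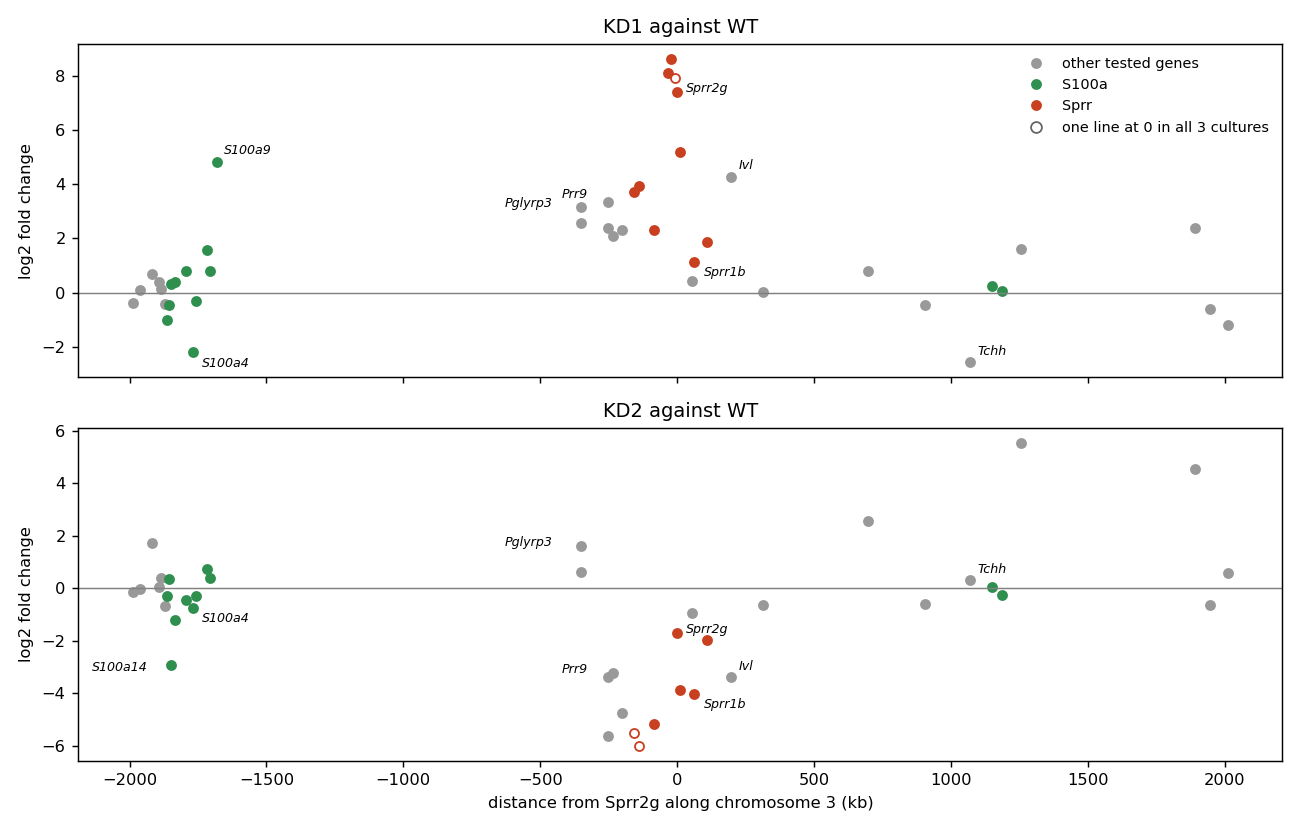
Log2 fold change against *WT* of each tested gene within 2 Mb of *Sprr2g*, for *KD1* (top) and *KD2* (bottom), by distance from *Sprr2g* in kb, in colour for *Sprr* and *S100a* genes, with open circles for fitted values of genes without a count in 1 of the lines. Genes at or under the floor in both lines are left out, 4 of them in *KD2*, and so is the pseudogene *Sprr2j-ps*. The *Sprr* genes and *Ivl* lie above 0 in *KD1* and below 0 in *KD2*, while *Pglyrp3* lies above 0 in both.

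Genes of cornification that lie outside the complex were examined as a list of 28, of which 19 were tested and 17 pass the filter without *KD1*. Of these 17, 10 were called higher and 1 lower for *KD1*, against 7.44% and 7.63% of all such genes, with a median log2FC of 1.34, and 2 were called higher and 11 lower for *KD2*, against 14.2% and 6.35%, with a median of -1.34. All 19 pass without *KD2*, and of the genes that do so 10.9% were called higher and 7.13% lower for *KD2*. *Tgm1*, the transglutaminase that cross-links SPRR proteins and involucrin, had 28, 47 and 18 counts in *WT*, 884, 769 and 882 in *KD1*, and 11, 9 and 18 in *KD2*. It rose in *KD1* with a log2FC of 4.52 (SE 0.190, adjusted p = 1.10e-10), and fell in *KD2* with -1.48 (SE 0.354, adjusted p = 0.00214), where *KD2* replicate 3 overlapped *WT*. *Abca12*, a lipid transporter of the skin barrier, had 37, 32 and 21 counts in *WT*, 1367, 1314 and 1423 in *KD1*, and 3, 6 and 5 in *KD2*, with log2FC values of 5.26 and -2.86 (adjusted p = 8.09e-13 and 5.30e-06).

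Not every gene of that list followed the *Sprr* genes. *Casp14*, a protease of terminal cornification, had 79, 170 and 132 counts in *WT*, 7, 2 and 4 in *KD1*, and 20, 19 and 5 in *KD2*, and it fell in both lines, with log2FC values of -5.07 and -3.30 (adjusted p = 4.90e-08 and 3.53e-07). *Krtdap*, a secreted keratinocyte protein, had 13, 25 and 26 counts in *WT*, 20, 9 and 29 in *KD1*, and none in *KD2*, a level at least 7.96-fold below *WT* (adjusted p = 4.11e-05), with a log2FC of -0.39 in *KD1* (adjusted p = 0.414). Both genes called higher in *KD2*, *Cdsn* and *Aloxe3*, which were chosen after their values were seen, were also called higher in *KD1*. Of the keratins of suprabasal epidermis, *Krt1* had no count and *Krt2* at most 1 count in a library. *Krt10*, the partner of *Krt1*, had 108, 119 and 93 counts in *WT*, 111, 93 and 84 in *KD1*, and 147, 225 and 194 in *KD2*. It went the other way from the *Sprr* genes, with a log2FC of -0.41 for *KD1* and 0.62 for *KD2* (adjusted p = 0.0607 and 0.00371). Over 8 markers of cornifying keratinocytes the sum was 10.2 to 13.3 CPM in *WT*, 28.3 to 31.3 in *KD1* and 6.94 to 10.3 in *KD2*. *Ivl* alone carried the higher sum of *KD1*, and without it the sums over the other 7 were 9.67 to 11.6 CPM in *WT*, 3.79 to 4.72 in *KD1* and 6.90 to 10.0 in *KD2*. Of the 8 markers, 3 were at or under the floor in *KD1*, 4 in *KD2* and 5 in *WT*.

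**Figure D5:**
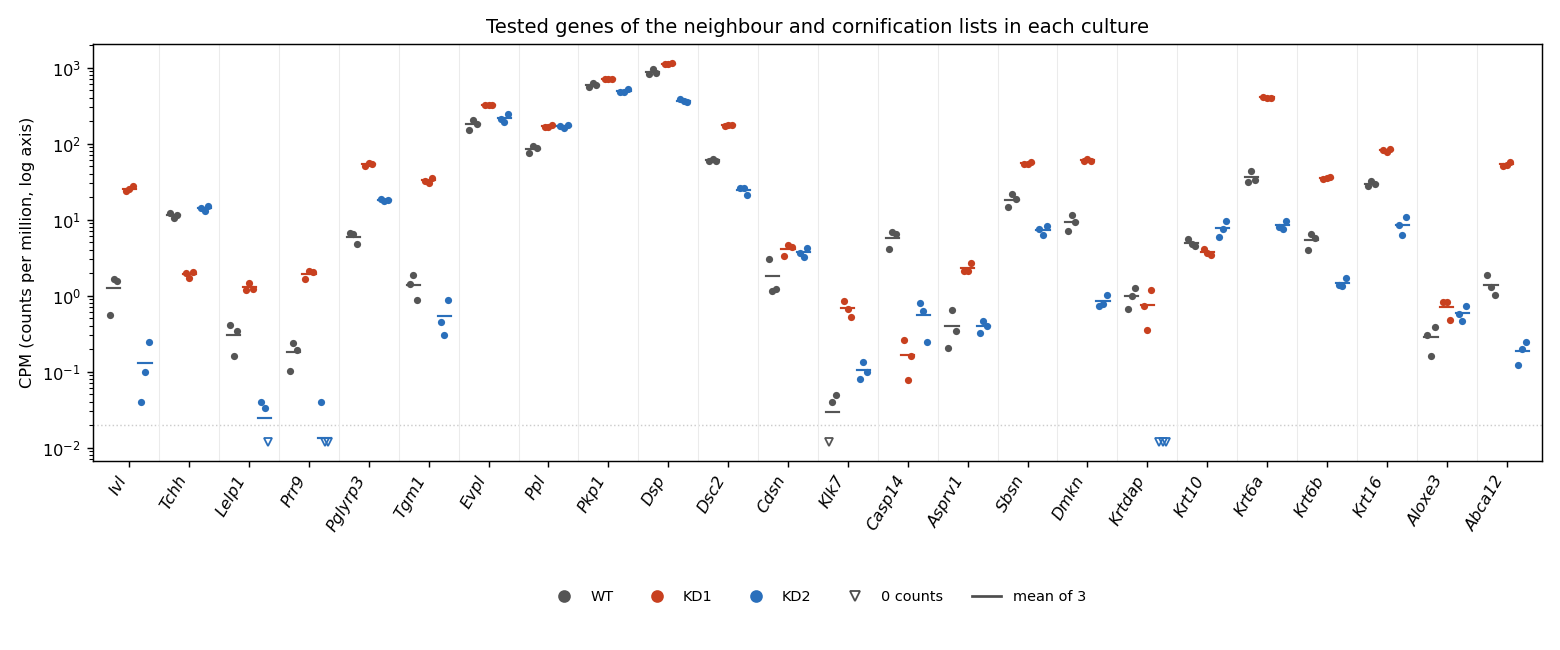
CPM on a log axis for the 24 tested genes of the complex and of the cornification list, with 1 point per library, open triangles for libraries with 0 counts and lines for the mean of 3. Most points of *KD1* lie above *WT* and most of *KD2* below it, with *Tchh* and *Casp14* as genes that were lower in *KD1*.

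Transcription factors known from keratinocyte differentiation were all expressed, and all 20 were tested. In *KD1* 5 were called higher, among them *Grhl3*, *Zfp750*, *Ehf* and *Elf3*, and 0 lower, against 9.34% and 7.49% of all genes, where edgeR gave 7 lower at an unadjusted p under 0.05 and DESeq2 called 0. In *KD2* 6 were called lower and 0 higher, against 6.71% and 14.5%, where 3 were higher at an unadjusted p under 0.05 and DESeq2 called 0. All 20 pass the filter without *KD2*, and of such genes 7.13% were called lower and 10.9% higher in *KD2*. By the edgeR adjusted p alone 10 of the 20 were higher and 7 lower in *KD1*, where 26.9% and 30% of all genes were. In *KD2* 2 were higher and 14 lower on that measure, where 34% and 33.3% were. *Ehf*, an ETS factor of epithelia, had 24, 28 and 32 counts in *WT*, 1625, 1451 and 1595 in *KD1*, and 56, 55 and 34 in *KD2*. The log2FC of *Ehf* was 5.54 for *KD1* (SE 0.121, adjusted p = 1.40e-13) and 0.57 for *KD2* (adjusted p = 0.0134), which missed the threshold without *WT* replicate 2 or *KD2* replicate 1 (adjusted p = 0.0640 and 0.0638). *Zfp750*, a factor of terminal differentiation, was at 9.60 ± 0.754 CPM (SD, n = 3) in *WT*, 43.6 ± 1.17 in *KD1* and 4.28 ± 0.427 in *KD2*, with log2FC values of 2.18 and -1.16 (adjusted p = 3.15e-11 and 2.28e-07). *Klf5* fell in *KD2*, with a log2FC of -1.89 there and 0.10 in *KD1* (adjusted p = 5.04e-11 and 0.217). *Klf4*, a barrier factor of skin, had values of -0.42 and -0.23, and *Trp63*, the factor of basal cells, of 0.73 and -0.96, all with an adjusted p under 0.05 and none past the limit of a log2 change of 1.

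Relatives and partners of the S100A proteins made a list of 16, of which 13 were tested. In *KD1*, 1 of the 13 was called higher, against 9.34% of all genes. Leaving out *S100b*, 0 of the 12 that pass the filter without *KD2* were called for *KD2*, against 10.9% higher and 7.13% lower of such genes. By the adjusted p alone 5 of these 12 were higher and 3 lower in *KD2*. *Anxa1*, a partner of S100A11, was at 331, 310 and 333 CPM in *WT*, 764, 759 and 748 in *KD1*, and 527, 515 and 513 in *KD2*, without overlap, and its log2FC values were 1.22 and 0.67 (adjusted p = 1.08e-10 and 5.39e-08). *Anxa2*, the partner of S100A10, had log2FC values of 0.20 and 0.10 (adjusted p = 0.0239 and 0.191). *S100b*, which lies outside the A series, had 4, 7 and 5 counts in *WT*, 2, 7 and 5 in *KD1*, and 15, 26 and 19 in *KD2*, the line through which alone it passed the filter.

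The part of other cell states in the results above was not tested, and the levels of their markers were as follows. The sum of the 8 mammary epithelial markers was 4877 to 5458 CPM in *WT*, 5534 to 5674 in *KD1* and 2939 to 3641 in *KD2*, and none of the 7 tested was called in either line against *WT*. By the adjusted p alone 3 of these 7 were higher in *KD1*, where 26.9% of all genes were, and 4 were lower and 1 higher in *KD2*, where 33.3% and 34% were. Over 8 fibroblast markers the sum was 16.6 to 22.3 CPM in *WT*, 7.98 to 9.96 in *KD1* and 26.1 to 27.4 in *KD2*. *Col1a1*, *Col1a2* and *Col3a1* were called lower in *KD1*, where *Col1a2* had no count and *Col3a1* had 1. In *KD2* the tested markers did not move 1 way. *Col1a2* and *Pdgfra* were called higher there, while *Col1a1* and *Col3a1* had log2FC values of -0.71 and -0.17 (adjusted p = 0.00186 and 0.428). *Thy1* had at most 1 count in a library, and *Dcn* and *Lum* had none in *WT*.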

How the data were processed

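RNA-seq counts per gene were deposited by the authors as 1 table of 9 libraries, made with fastp, HISAT2 on GRCm38 and featureCounts, and no column lacked a library. Strand and multimapping settings are not given in the sources used here, so reads of near-identical copies and of overlapping genes may be shared. The deposited counts were fitted with edgeR 4.0.16 in R 4.3.3 (filterByExpr, TMM, quasi-likelihood F-test) over all 9 libraries, Benjamini-Hochberg adjusted over 15253 genes, and CPM were derived from them. A call needed a log2 fold change beyond 1 in size, with the adjusted p under 0.05. Fold changes against a line without counts were bounded by a floor of 3 counts per library. Ratios with 1 to 3 counts in a line carry exact 95% intervals for counting error only. DESeq2 1.42.0, other scalings and filters, a replicate block, single comparisons and leaving out each library were alternatives. The fit was tested on simulated data. Genes that pass the filter only through 1 line were found by repeating it without that line, a step added after seeing the data.

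Members and gene lists were chosen with earlier results of these data known. Genes named were *Sprr2g*, *Sprr* and *Lce* genes with more than 3 counts in at least 2 libraries of a line, all tested *S100a* genes, and the 4 called genes with the largest change in each list and within 2 Mb of *Sprr2g*, plus *Ivl*, *Lor*, *Tgm1*, *Anxa2*, *Anxa1*, *Klf4*, *Trp63* and *Vangl2*. Other members, *Grhl3*, *Elf3*, *Cdsn*, *Aloxe3*, *Sprr2j-ps* and marker genes near 0 were named after their values were seen. Positions come from GENCODE M21 on GRCm38, where 53462 of 55228 names matched and 1766 did not. Shared 50-base exon windows were computed for members only. The TATA letters and the search for shared runs were added after seeing the windows. A planned comparison of protein sequences was not made. The values of 1 gene of the regulator list are not reported here.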

Additional observations from a re-analysis of the deposited data

Results flagged for a closer look

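For 9 members the 2 edited lines moved away from *WT* in opposite directions, with an adjusted p under 0.05 in edgeR for both. These members were picked by those values, so a difference of *KD2* from *KD1* follows from the choice and is given without a p. The share of all genes that moved in opposite directions was not counted, so the 9 cannot be called particular to the members. By the adjusted p alone, 26.9% of all genes tested were higher and 30% lower in *KD1*, and 34% and 33.3% in *KD2*. The log2 difference was -9.04 for *Sprr2h*, -7.49 for *Sprr2a3*, -5.15 for *Sprr1b*, -3.84 for *Sprr1a*, -3.25 for *S100a14* and -1.61 for *S100a16*, each with a higher value in *KD1* and a lower value in *KD2* than in *WT*. For *Sprr2a1* and *Sprr2a2* the fitted values were -9.21 and -9.93, which depend on the prior count because *KD2* had no counts, and both genes passed the low-count filter only through *KD1*. *S100a13* alone went the other way, with a log2 difference of 0.79.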

How the results depend on the processing

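Of the log2 fold changes of the members under the alternatives, 921 kept direction and side of the threshold, 28 lost and 8 gained an adjusted p under 0.05, and 6 turned direction. With at least 10 counts in every library, which removes genes absent from a line, the calls fell to 3 higher in *KD1*, 5 lower in *KD2* and 6 lower in *KD2* against *KD1*. With every gene of at least 1 count, 15 members were called higher in *KD1*, with *Lce1g*, *S100a2*, *Sprr2i* and *Sprr2k* added, 10 lower and, with *Lce1h*, 1 higher in *KD2*, and 18 lower in *KD2* against *KD1*. DESeq2 called 14, 10 and 17 members in the same comparisons, and 0 higher in *KD2*. The members called lower in *KD1* were 1 in place of 2, losing *S100a1*, with that filter, with at least 10 counts, with DESeq2 or its size factors, and with the 6 libraries compared alone. Leaving out 1 library gave 11 to 12 higher and 1 to 2 lower in *KD1*, 0 higher and 8 to 9 lower in *KD2*, and 1 higher and 13 to 14 lower in *KD2* against *KD1*. Directions turned for values close to 0. With 1 library left out, the log2 fold change ranged from -0.041 to 0.14 for *S100a11* in *KD2* (below 0 without *WT* replicate 1 or *KD2* replicate 3), from -0.038 to 0.13 for *Vangl2* in *KD2* (below 0 without *WT* replicate 1), from -0.021 to 0.17 for *Pdgfra* in *KD1* (below 0 without *WT* replicate 1 or *KD1* replicate 1), and from -0.16 to 0.11 for *S100a6* in *KD2* against *KD1* (below 0 without *KD1* replicate 3 or *KD2* replicate 3). The last value was also -0.029 with at least 1 count and -0.0034 with DESeq2, and *Anxa2* in *KD2* against *KD1* had 0.033 with library size alone. Library size alone put the median of all genes at 0.12 in *KD2* and 0.14 in *KD2* against *KD1*. Except where the filter itself sets the count, the cause was not tested. Counts of 3 or fewer per library limit most *Lce* genes in each line, and 4 of the 11 *Sprr2* copies in *WT* and 8 in *KD2*.

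Replicate numbers are shared between lines but did not pair the libraries, since same-numbered libraries had a mean correlation of deviations of 0.00116 (-0.0652 to 0.0789) and others of -0.00109. With that number fitted as a block, the calls stayed at 11 higher and 2 lower in *KD1*, 0 and 8 in *KD2*, and 1 and 13 in *KD2* against *KD1*. *S100a11* in *KD2* against *KD1* then passed the threshold (log2 difference -0.21, adjusted p = 0.0250 against 0.0596).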
